A study of Mus musculus with 3 samples.

Results

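The genes described here encode the matrix metalloproteinases (MMPs), the ADAMTS proteases and the TIMPs, their tissue inhibitors, in the mouse left ventricle. They were taken by symbol, as every probe set whose gene symbol was Mmp, Adamts or Timp followed by a number, and a letter in the case of Mmp1a and Mmp1b. This gave 46 genes, made up of 23 MMP, 19 ADAMTS and 4 TIMP genes, out of 23740 probe sets with a symbol and 25206 in all. The ADAMTS-like genes (Adamtsl), which lack a protease domain, were not among them.

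MMPs are zinc proteases, secreted or held at the cell membrane, that cut collagens, gelatin, elastin, laminin and other matrix proteins. Most are made as inactive proenzymes, and the membrane-type enzyme MMP14 activates pro-MMP2 with the help of TIMP2. ADAMTS proteases are secreted, carry thrombospondin repeats, and trim procollagens, cut proteoglycans such as versican and aggrecan, or process von Willebrand factor. TIMPs bind the active site of MMPs, and TIMP3, which stays bound to the matrix, also inhibits ADAMTS and ADAM enzymes. In the heart these genes are studied for their part in matrix turnover during remodelling.

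Gene expression was measured on 3 arrays, each hybridised with a pool of 3 RNA samples taken from left ventricle at 14 days. The mice were C57BL/6N males, 8 to 12 weeks old. Control mice carried an osmotic pump with vehicle (ammonium bicarbonate) and were injected with saline. Iso mice carried the same vehicle pump and were given isoproterenol, which stimulates beta-adrenergic receptors and was used to injure the heart, for 11 days by intraperitoneal injection of 50 mg/kg daily. Iso+Insl6 mice received the same isoproterenol while the pump delivered INSL6, an insulin and relaxin family protein, subcutaneously at a daily 50 to 70 nmol/kg. Each group has 1 array and no replicate, the pool hides the spread between mice, and no test of the conditions exists, so every difference below describes these arrays alone. All values are log2 expression, on which a difference of 1 is a 2-fold difference. The background level was 4.16, the median of all deposited values and of each array. A difference was counted when it reached 1.5-fold (log2 0.585) in a gene at or above 4.16 on the higher of the arrays compared. In whole tissue, fewer cells of a type and less RNA per cell cannot be told apart.

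The arrays carried the defining genes of the labelled tissue. All 6 cardiomyocyte markers lay between 11.02 and 12.22 on every array. All 7 fibroblast, 6 endothelial, 6 smooth muscle and pericyte and 5 macrophage markers measured exceeded 4.16 on each array, while 2 of 4 mast cell, 1 of 4 mesothelial, 0 of 5 neutrophil and 0 of 4 adipocyte markers did. Hepatocyte markers stood apart on the Iso+Insl6 array. Their 8 levels ran from 4.16 to 8.78 on Control, from 4.46 to 8.97 on Iso and from 5.91 to 11.12 on Iso+Insl6, where all 8 were at least 1.5-fold above Iso, with a median difference of 2.17. Summed on the linear scale these 8 markers came to 863 on Control, 874 on Iso and 4212 on Iso+Insl6. Albumin, Alb, the highest of them at 8.78, 8.97 and 11.12, weighed most in these sums.

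The promoters of the 4 members around which the differences below turn are shown first, since Mmp14 and Adamts9 were lower on Iso than on Control and Timp3 and Timp4 were highest on Iso+Insl6. Each window runs from 250 bases before to 50 bases after the gene's start in RefSeq (build GRCm38.p6), 5′ to 3′ on the gene's strand. The windows are chr14:54431348-54431647 (plus strand) for Mmp14, chr6:92943485-92943784 (minus strand) for Adamts9, chr10:86300162-86300461 (plus strand) for Timp3 and chr6:115252156-115252455 (minus strand) for Timp4. Capitals mark the GC box, GGGCGG on either strand.
Mmp14: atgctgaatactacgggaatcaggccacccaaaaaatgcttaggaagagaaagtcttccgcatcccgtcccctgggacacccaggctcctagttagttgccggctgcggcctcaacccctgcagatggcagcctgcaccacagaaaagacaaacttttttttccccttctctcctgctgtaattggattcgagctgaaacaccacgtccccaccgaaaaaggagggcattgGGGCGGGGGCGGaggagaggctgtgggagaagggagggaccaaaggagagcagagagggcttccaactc
Adamts9: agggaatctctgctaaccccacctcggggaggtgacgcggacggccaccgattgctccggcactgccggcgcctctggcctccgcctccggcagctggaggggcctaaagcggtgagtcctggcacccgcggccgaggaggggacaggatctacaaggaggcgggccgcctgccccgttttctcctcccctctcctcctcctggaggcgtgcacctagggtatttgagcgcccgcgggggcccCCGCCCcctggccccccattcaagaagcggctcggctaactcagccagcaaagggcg
Timp3: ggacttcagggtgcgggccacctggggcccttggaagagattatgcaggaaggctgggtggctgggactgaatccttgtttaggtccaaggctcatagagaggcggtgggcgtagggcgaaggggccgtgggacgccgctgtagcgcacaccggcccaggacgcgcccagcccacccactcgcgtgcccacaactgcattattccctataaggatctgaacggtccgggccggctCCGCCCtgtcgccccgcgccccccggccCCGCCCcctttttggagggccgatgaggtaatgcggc
Timp4: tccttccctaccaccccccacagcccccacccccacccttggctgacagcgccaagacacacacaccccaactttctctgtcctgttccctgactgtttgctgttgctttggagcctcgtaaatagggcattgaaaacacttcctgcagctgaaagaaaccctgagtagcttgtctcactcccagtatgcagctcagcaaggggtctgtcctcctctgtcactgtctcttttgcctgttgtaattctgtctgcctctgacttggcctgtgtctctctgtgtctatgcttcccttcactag
Mmp14 and Timp3 each held 2 GC boxes, Adamts9 held 1 and Timp4 held 0. At least 1 lay in 35.7% of all 32851 RefSeq windows of this length. Among windows of genes above background, as these 4 are, the share was 61.4%. CpG dinucleotides numbered 10 in Mmp14, 25 in Adamts9, 24 in Timp3 and 2 in Timp4, beside a median of 20.0 for genes above background. The cyclic AMP response element TGACGTCA, the AP-1 element TGANTCA, the E-box CACGTG and the TATA box TATAAA, each searched on both strands, had 0 matches in these 4 windows. Among all windows 1.79% held TGACGTCA, 7.81% TGANTCA, 7.15% CACGTG and 13.6% TATAAA. For genes above background these shares were 2.83%, 5.20%, 9.72% and 7.67%. A match or its absence describes these letters only.

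Of the 46 genes, 21 exceeded 4.16 on at least 1 array, or 45.7%, beside 52.1% of all genes. On Control 21 members did, on Iso 20 and on Iso+Insl6 19, where the share of all genes was 51.0%, 51.1% and 51.0%. By family, 8 of 23 MMP, 10 of 19 ADAMTS and 3 of 4 TIMP genes exceeded it. Mmp10 did so on Control and Iso but not on Iso+Insl6, and Adamts15 only on Control, while the other 19 did on all 3 arrays. Close to the line, Mmp28 stood above it at 4.24 and Adamts17 on it at 4.16 on every array, Mmp10 was at 4.16 on Iso+Insl6 and Adamts15 at 4.13 on Iso. The remaining genes lay between 1.16 and 4.16, and none of their differences reached 1.5-fold, running from -0.46 to 0.35. Since probe sets respond differently, a level is compared only with the same gene on another array and with 4.16.

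**Figure D1:**
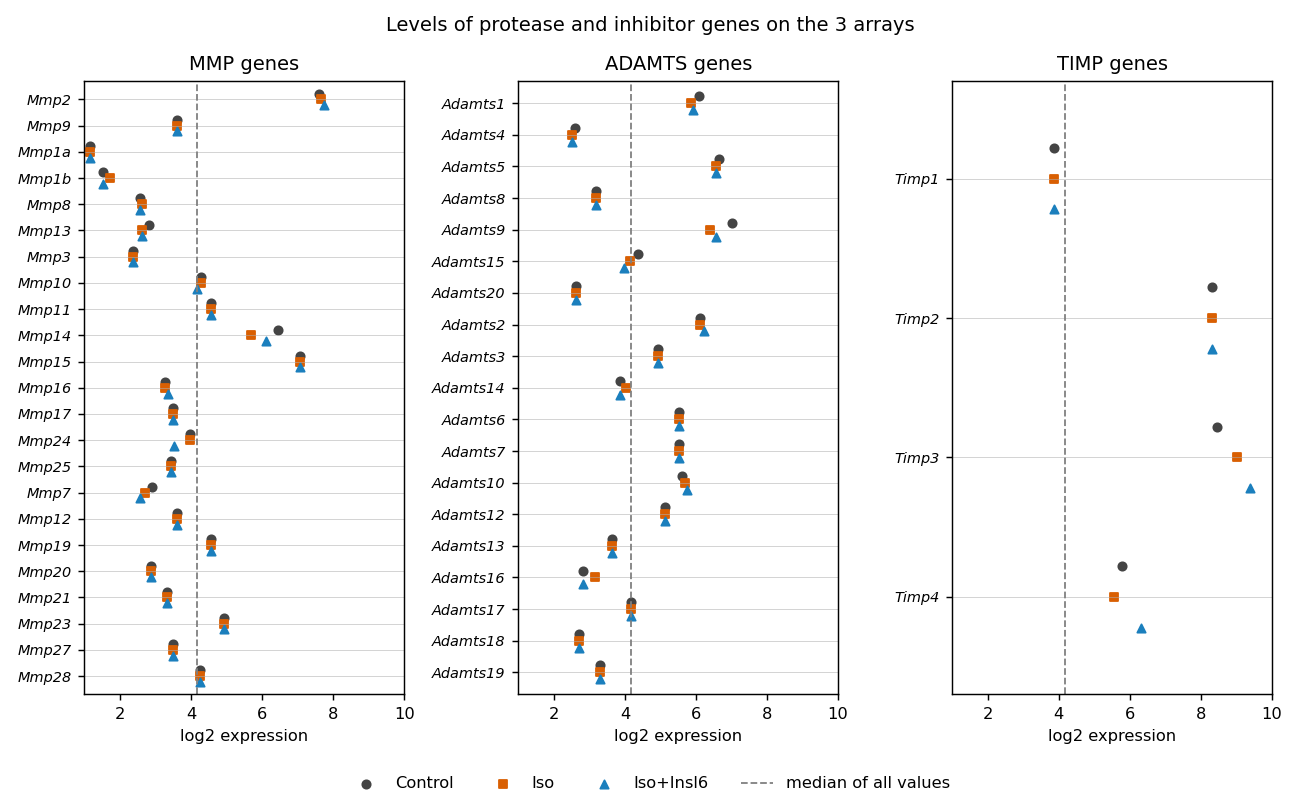
Log2 expression of each MMP, ADAMTS and TIMP gene (rows) on the Control (circle), Iso (square) and Iso+Insl6 (triangle) array; the dashed line is the median of all values, 4.16. Most genes have their 3 points on top of each other, while Mmp14 and Adamts9 are highest on Control and Timp3 and Timp4 on Iso+Insl6.

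A large share of members had exactly the same listed value on all 3 arrays, namely 26 of 46, or 56.5%, against 50.7% of all genes. Among the 21 members above background on any array it was 10, and among all genes so placed 42.3%. Among members that stayed below background it was 16 of 25, against 59.9% of all such genes. The 10 above background were Mmp11, Mmp15, Mmp19, Mmp23, Mmp28, Adamts3, Adamts6, Adamts7, Adamts12 and Timp2. Each share was close to that over all genes. Where these ties come from was not tested, and an equal listed value is not shown to mean equal expression.

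Among the gelatinases, which digest denatured collagen and basement membrane collagen, Mmp2 stood at 7.60 on Control, 7.66 on Iso and 7.73 on Iso+Insl6. The steps of 0.06 and 0.07 were far below 1.5-fold. Mmp9, the gelatinase typical of neutrophils and macrophages, was at 3.61 on every array, below background. All 4 collagenases were below background throughout, with Mmp1a at 1.16 on each array and Mmp13, the main interstitial collagenase of rodents, at 2.82, 2.63 and 2.63. Mmp8, the neutrophil collagenase, lay at 2.56, 2.62 and 2.56.

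Of the stromelysins, Mmp3, which cuts proteoglycans, laminin and fibronectin, was at 2.36 on all arrays. Mmp10 stood at 4.28 on Control and Iso and at 4.16 on Iso+Insl6. Mmp11, unusual in being activated inside the cell by furin, was at 4.57 throughout. The macrophage elastase Mmp12 (3.61), the enamel protease Mmp20 (2.88), Mmp21 (3.31) and Mmp27 (3.49) were below background at 1 value each. Mmp7, or matrilysin, was listed at 2.90, 2.70 and 2.55, all below background. Mmp19 (4.57), Mmp23 (4.94) and Mmp28 (4.24), also called epilysin, lay above it, each with the same listed value on every array.

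Mmp14 (Entrez gene 17387), the membrane-type enzyme that cuts fibrillar collagen and activates pro-MMP2, showed the largest difference of any member between Iso and Control. It was listed at 6.44 on Control, 5.70 on Iso and 6.10 on Iso+Insl6. The Iso array was lowest and the Iso+Insl6 array lay between the others. Iso was lower than Control by a log2 difference of -0.74, or 1.67-fold, and 72 of the 12415 genes tested were at least as far below Control, or 0.580%. Iso+Insl6 was higher than Iso by 0.40, or 1.32-fold, and lower than Control by -0.34, neither at 1.5-fold. Mmp15, the nearest relative among the membrane-type enzymes, was at 7.06 on every array, and Mmp16, Mmp17, Mmp24 and Mmp25 were below background. Mmp24 was listed at 3.97, 3.97 and 3.51.

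The ADAMTS proteoglycanases cut versican and aggrecan. Of 7 measured, Adamts1, Adamts5 and Adamts9 exceeded background on all 3 arrays and Adamts15 on Control alone, and only Adamts9 reached 1.5-fold. Adamts9 (Entrez gene 101401) was at 7.02 on Control, 6.38 on Iso and 6.57 on Iso+Insl6, so that Control stood above both treated arrays. The Iso array was 1.56-fold lower than Control (-0.64), a size that 105 of 12415 genes reached or passed downward, and Iso+Insl6 was above Iso by 0.19. Adamts1, an angiogenesis inhibitor as well as a protease, was at 6.09, 5.85 and 5.92, a difference of -0.24 on Iso. Adamts5, the main aggrecanase of mouse cartilage, was at 6.65, 6.56 and 6.56. Adamts15 was at 4.36, 4.13 and 3.98 and left the range above background on Iso. Adamts4 (2.58, 2.52, 2.52), Adamts8 (3.18) and Adamts20 (2.63) were below background throughout. Versican, Vcan, the substrate these enzymes share in the heart, was at 5.67 on all arrays.

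Of the procollagen N-proteinases, which remove the amino-terminal propeptide of fibrillar collagens, Adamts2 was at 6.12, 6.12 and 6.22 and Adamts3 at 4.93 on each array. Adamts14 lay below background at 3.87, 4.02 and 3.87. Adamts10, which acts with fibrillin microfibrils, was listed at 5.61, 5.70 and 5.76. Its relative Adamts6 was at 5.52 on every array, and so was Adamts7, which degrades cartilage oligomeric matrix protein. Adamts12 was at 5.13. The von Willebrand factor protease Adamts13 (3.63) and Adamts18 (2.70) and Adamts19 (3.31) were below background, and Adamts16 was listed there at 2.82, 3.17 and 2.82.

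Of the 4 TIMP genes, Timp3 and Timp4 differed between arrays, while Timp1 and Timp2 each had the same listed value throughout. Timp3 (Entrez gene 21859), the matrix-bound inhibitor, was at 8.44 on Control, 9.01 on Iso and 9.38 on Iso+Insl6, higher on each array than on the one before. Iso exceeded Control by 0.57, or 1.48-fold, just short of the threshold, and 114 of 12415 genes were at least as far above Control. Iso+Insl6 exceeded Iso by 0.37 and Control by 0.94, or 1.92-fold, which was the widest spread of any member. Centring the arrays on genes above background placed the Iso difference of Timp3 at 0.59, past 1.5-fold.

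Timp4 (Entrez gene 110595), an inhibitor known for higher expression in heart than in most other tissues, was at 5.77 on Control, 5.55 on Iso and 6.31 on Iso+Insl6. Iso was lowest and Iso+Insl6 highest. The Iso+Insl6 array was above Iso by 0.76, or 1.69-fold, and 145 of 12457 genes, or 1.16%, were at least as far up. Against Control it was above by 0.54, or 1.45-fold. Timp2 was at 8.30 on every array, and Timp1, an inhibitor often induced in fibrosis and inflammation, at 3.87, below 4.16. Against 3.71, the 95th percentile of olfactory, vomeronasal and keratin-associated genes, Timp1 lay above on all 3 arrays. Over the 3 TIMP genes above background the median difference of Iso+Insl6 from Iso was 0.37, beside 0.00 for all genes so chosen. That median is the value of Timp3 itself, between Timp2 at 0.00 and Timp4 at 0.76, and Timp1 was also listed at 0.00.

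The first comparison in the design set Iso against Control to ask what isoproterenol changes. Of 22 members at or above background on the higher array, 0 were 1.5-fold higher and 2 lower, Mmp14 and Adamts9. Among all genes tested 0.846% were 1.5-fold higher and 1.03% lower, or 1.88% in either direction. Listed values of the 21 members above background on any array were higher in 3, lower in 6 and equal in 12, and over all such genes 19.9% were higher, 27.6% lower and 52.5% equal. The median difference of the 20 members whose mean exceeded background was 0.00, as for all genes, and the mean was -0.06 against -0.01. With 12 of the 21 members and 52.5% of all genes listed equal, both medians were held at 0.00 and say little about the family. Of the 6 endothelial markers 4 were listed lower on Iso and 1 higher, with the VEGF receptor Kdr 1.5-fold lower at 9.51, 8.90 and 8.69. Their summed linear level was 2649 on Control, 2376 on Iso and 2309 on Iso+Insl6, with the largest difference in Kdr. On Iso against Control, Pecam1 differed by 0.00, Cdh5 by -0.02, Tek by -0.08, Cldn5 by -0.38 and Vwf by 0.26. Of the 7 fibroblast markers, 3 were listed higher on Iso, 3 lower and 1 equal. The part of either cell type in the Mmp14 and Adamts9 values was not tested.

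**Figure D2:**
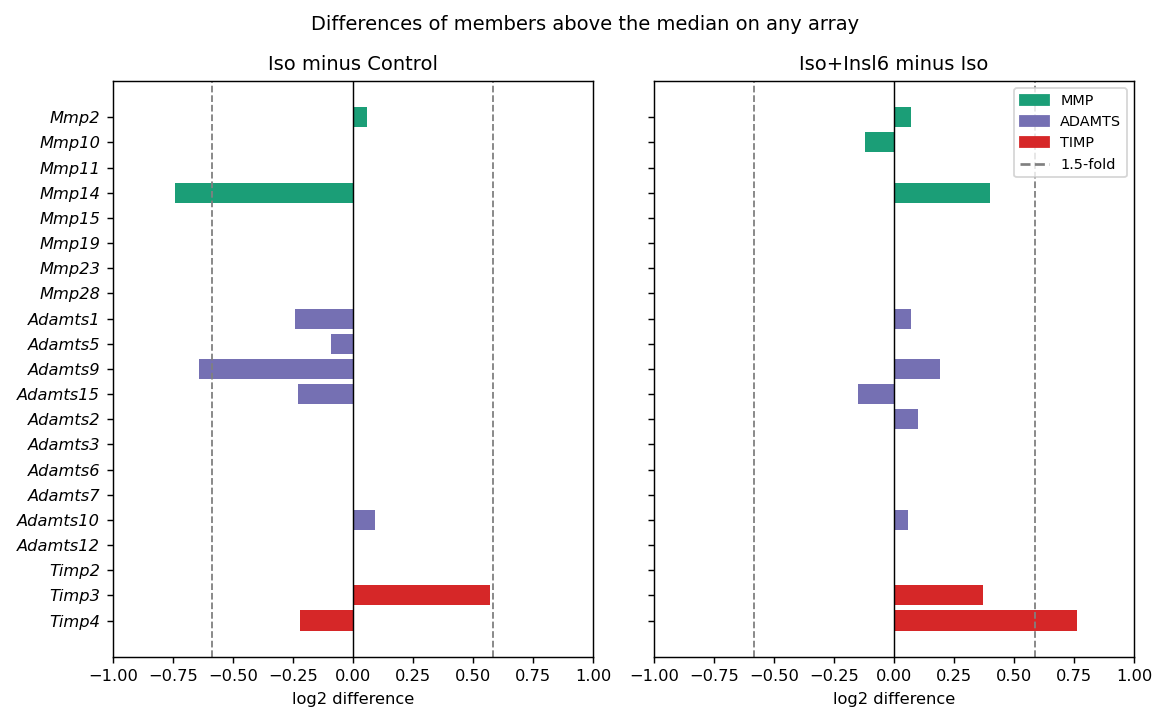
Log2 difference (horizontal axis) of each member above background on any array, for Iso minus Control (left) and Iso+Insl6 minus Iso (right); bars are coloured by family and dashed lines mark 1.5-fold. Mmp14 (-0.74) and Adamts9 (-0.64) pass the line on the left and Timp4 (0.76) on the right, and members without a bar had equal values.

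The second comparison set Iso+Insl6 against Iso, which asks what INSL6 infusion adds. Of 21 members tested, 1 was 1.5-fold higher, Timp4, and 0 were lower, where 1.49% of all 12457 genes were higher, 0.506% lower and 1.99% either. Of the 21 members above background on any array 8 were listed higher, 2 lower and 11 equal, and over all such genes 28.1% were higher, 18.1% lower and 53.7% equal. The mean difference was 0.10 over the 20 members and 0.03 over all genes, with both medians held at 0.00 by equal listed values. Timp4 at 0.76, Mmp14 at 0.40, Timp3 at 0.37 and Adamts9 at 0.19 weighed most in the mean of the members. The hepatocyte markers moved with this comparison, all 8 of 8 by 1.45 to 3.19, and their part in the Timp4 and Timp3 values was not tested. Fibroblast markers differed far less, by 0.00 to 0.17, and 6 of 7 were listed higher.

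Iso+Insl6 against Control shares an array with each of the other comparisons and is given for its own values. Of 22 members tested, Timp3 alone was 1.5-fold higher and 0 were lower, where 1.96% of all genes were higher, 0.789% lower and 2.75% either. Listed values of the 21 members above background on any array were higher in 5, lower in 6 and equal in 10, and over all such genes 23.2% were higher, 23.5% lower and 53.3% equal. Mmp2, Adamts10 and Timp3 were listed higher at each step from Control through Iso to Iso+Insl6, and Adamts15 lower at each. Of all genes above background on any array, 5.03% were listed higher and 4.20% lower at both steps.

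**Figure D3:**
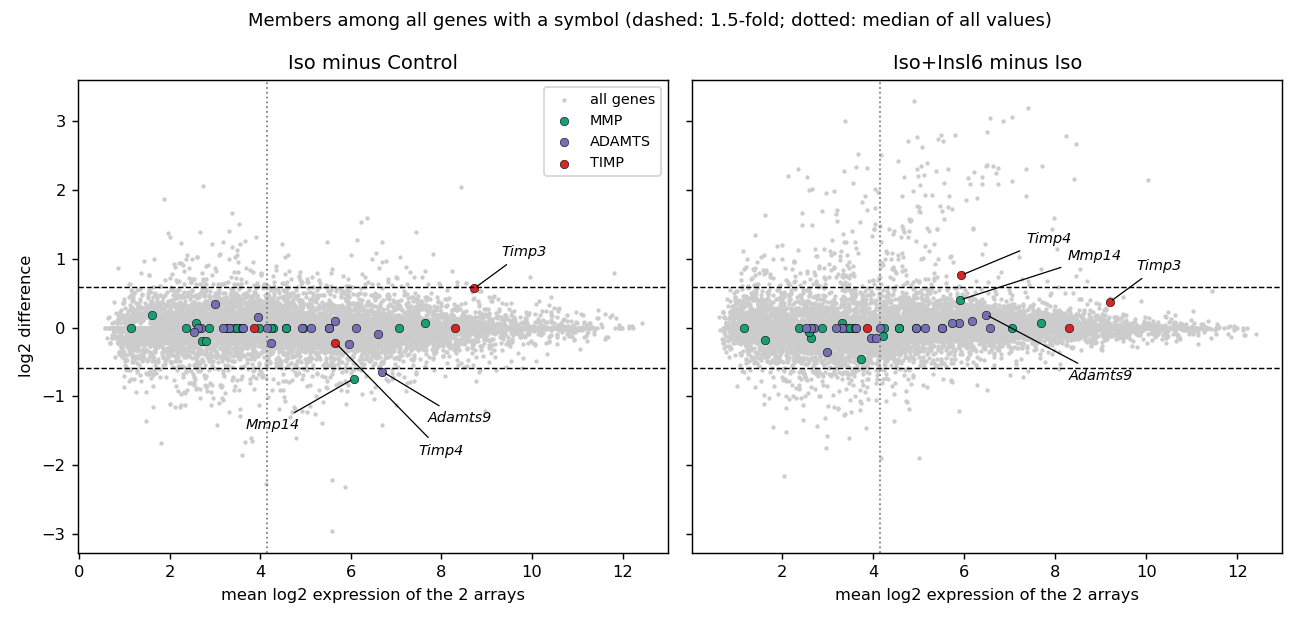
Log2 difference (vertical axis) against the mean log2 expression of the arrays compared (horizontal axis) for all genes with a symbol (grey) and the members (coloured by family); left is Iso minus Control, right Iso+Insl6 minus Iso. Most members lie on or near 0 inside the 1.5-fold lines, and the grey points high on the right panel include the hepatocyte markers.

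Other genes of matrix proteolysis were read from 7 lists. Genes that activate, clear or hold these proteases differed little, with 0 of 8 tested at 1.5-fold in either comparison of the design. The proprotein convertase Furin, which activates MMP14, was at 7.62 on each array. The membrane-anchored MMP inhibitor Reck was at 5.52, 5.42 and 5.65, and the MMP inducer Bsg at 11.01, 10.83 and 10.83. The clearance receptor Lrp1 was at 7.42, 7.43 and 7.57.

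The plasminogen system, whose plasmin activates several proMMPs, held larger differences. On Iso against Control 1 of 8 tested was 1.5-fold higher, Serpine2, an inhibitor of thrombin and plasminogen activators, at 5.85, 6.63 and 6.62. On Iso+Insl6 against Iso 3 of 9 were 1.5-fold higher. These were plasminogen, Plg (4.90, 4.76 and 6.34), the plasmin inhibitor Serpinf2 (4.29, 4.29 and 5.13) and the procarboxypeptidase Cpb2 (4.07, 4.12 and 5.43), all plasma proteins made in liver. They were higher on the same array as the hepatocyte markers, and what part those cells had in it was not tested. The activators differed less, with tissue plasminogen activator, Plat, at 6.23, 6.11 and 5.95 and urokinase, Plau, at 5.00 on each.

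The ADAM proteases, membrane-bound relatives that shed cell surface proteins, had 0 of 8 tested at 1.5-fold in either comparison. Adam19 came nearest at 5.84, 5.28 and 5.28, while Adam10 (7.53, 7.53 and 7.51) and Adam17 (7.05, 7.04 and 7.04), the main sheddases, were level. Of 6 ADAMTS-like proteins tested 1 was 1.5-fold higher on Iso, Adamtsl3 (4.88, 5.47 and 5.28), and 0 passed on Iso+Insl6 against Iso. Among 9 other matrix proteases tested, cathepsins and the procollagen C-proteinase Bmp1 included, 0 reached 1.5-fold in either comparison.

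Of 13 matrix substrates tested, only elastin, Eln, was 1.5-fold lower on Iso, at 5.92, 5.04 and 5.40, and 0 passed on Iso+Insl6 against Iso. Of 9 genes for inducers of proteases tested, such as AP-1 subunits and transforming growth factor beta, 0 reached 1.5-fold in either comparison. Below that size, 7 of the 9 were listed lower on Iso than on Control, 1 higher and 1 equal, where 27.6% of all genes above background were lower. From Iso to Iso+Insl6, 5 were listed higher, 2 lower and 2 equal. The cytokines Il1b, Tnf and Il6 were below background on all arrays.

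**Figure D4:**
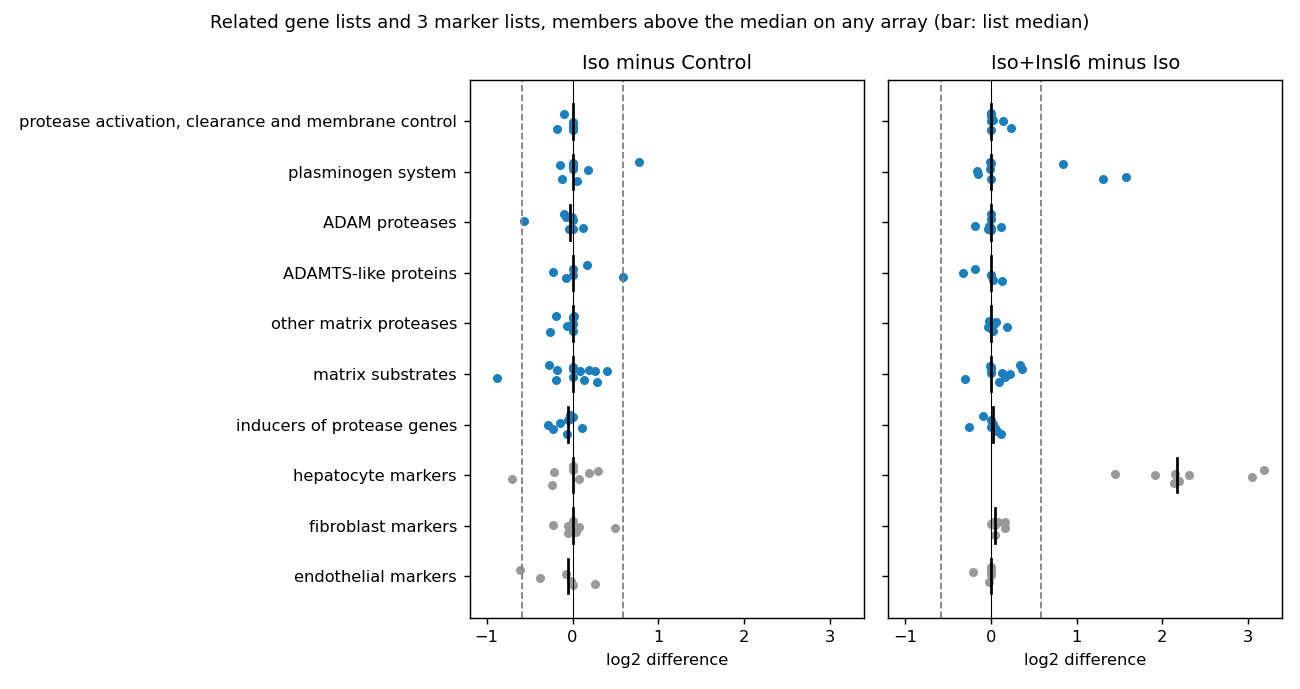
Log2 differences (horizontal axis) of genes above background on any array in 7 related lists (blue) and 3 marker lists (grey), for Iso minus Control (left) and Iso+Insl6 minus Iso (right); each point is a gene, black bars are list medians and dashed lines mark 1.5-fold. Hepatocyte markers and 3 plasminogen system genes lie past the line on the right.

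Members were also placed by position and promoter sequence, which the choice by symbol did not use. In the RefSeq gene order 10 MMP genes follow each other without another protein-coding gene between, in the order Mmp13, Mmp12, Mmp1b, Mmp3, Mmp1a, Mmp10, Mmp8, Mmp27, Mmp20 and Mmp7. Only Mmp10 of these 10 exceeded background, at 4.28. Adamts1 and Adamts5 are neighbours and both exceeded it, and of the neighbours Adamts15 and Adamts8 only Adamts15 did. Timp1, Timp3 and Timp4 each come directly after a synapsin gene in the order of gene starts, which does not tell adjacent from overlapping genes.

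RefSeq promoter windows were matched to 32 of the 46 members, 35 windows in all. The 15 windows of members above background held a median of 20.0 CpG dinucleotides and the 20 windows of the others 3.0, beside 20.0 and 5.0 for all genes split the same way. The GC box lay in 73.3% of windows of members above background and 35.0% of the others, against 61.4% and 28.0% over all genes. TATAAA was found in 45.0% of windows of members below background and in 13.3% of those above, against 17.7% and 7.67%. TGANTCA was found in 35.0% and 6.67% of them, against 9.72% and 5.20%. The neighbouring MMP genes share ancestry, so their windows are not independent examples.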

How the data were processed

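Pools of 3 RNA samples were hybridised, 1 per array. The values the authors deposited are log2 expression with 2 decimals, and the submitters' processing notes name RMA and affy 1.36.1 as the tools; array type, genome build and scan dates are not given in the sources used here. Probe sets carry Entrez gene numbers, and symbols came from RefSeq's table (GRCm38.p6). Of the 46 members, 44 had the same symbol in the platform annotation, and Mmp15 and Adamts2 were named from RefSeq only. All columns were matched, and 0 were left over.

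Differences were taken on the log2 scale with Python 3.11.15, numpy 2.4.6 and pandas 2.3.3 and counted by size. The number of arrays limits the precision. Counting was tested on simulated data with planted differences larger than those counted in members, so that test does not show how well such smaller differences are found. Members, 7 pathway lists and 10 marker lists (141 entries, 140 measured) were chosen with earlier results of these data known. Members above background are named with all values, the others by range or value; of the lists, genes past 1.5-fold and Reck, Bsg, Furin, Plat, Lrp1 and Vcan were due, and further list genes were named after their values were seen. Alternatives were cyclic loess and quantile normalization (limma 3.58.1, R 4.3.3), centring on genes above background, a background from olfactory, vomeronasal and keratin-associated genes, a 2-fold threshold, no filter on level, and adding Adamtsl genes.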

Additional observations from a re-analysis of the deposited data

How the results depend on the processing

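At a 2-fold threshold 0 members were past it in each of the 3 comparisons, higher or lower, so the 2 lower on Iso than on Control, the 1 higher on Iso+Insl6 than on Iso and the 1 higher on Iso+Insl6 than on Control were all between 1.5-fold and 2-fold. The count of members higher on Iso than on Control was 0 as deposited. It was 1 after quantile normalization and 1 after centring, each time Timp3, which then lay on the threshold (0.59 after centring), and 1 with Adamtsl genes added, Adamtsl3. The mean difference of Iso+Insl6 from Iso was 0.10 where the median was 0.00. Another 83 recomputed counts and medians stayed within 1.5 times or 0.1 of the main value. Several of these had little room to move, being counts of 0 or medians held at 0.00 by equal listed values. The number of members above background was 25 against the 95th percentile of silent families, 3.71, in place of 21, with Timp1, Mmp24, Adamts14 and Adamts17 added. Of 189 recomputed single-gene differences, 0 changed sign and all moved by less than 0.1. These settings could move them little. Cyclic loess shifted each member by 0.00, and centring shifted all members alike, by 0.02, -0.04 or -0.02 depending on the comparison. Many of the differences were 0.00 as deposited and had no sign to change. No paired analysis was possible because each group has 1 array, and no array could be left out for the same reason. With mRNA alone, protease activity was not measured, and values near 4.16 have little signal over background.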

Other observations

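Among members below background the listed values moved by as much as -0.46 (Mmp24, Iso+Insl6 against Iso) and 0.35 (Adamts16, Iso against Control, with -0.35 on Iso+Insl6 against Iso). Of the hepatocyte markers, Fgb was 1.5-fold lower on Iso than on Control, at 6.69, 5.98 and 8.11 on Control, Iso and Iso+Insl6.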
